A study of Mus musculus with 9 samples.

Results

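The genes described here are 32 genes of inhibitory transmission in the mouse hippocampus, taken by their names from a table of 18275 genes. They make up the subunits of the receptors for GABA, a scaffold that anchors these receptors, transporters of GABA and chloride, the proteins that make and load GABA, and transcription factors and markers of the interneurons that release it. All 32 had a mean normalised count of at least 10 over the 9 libraries, the minimum for testing, and were tested among 16196 genes. The receptor and transport side holds 15 of them, and the interneuron side holds 17.

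GABA is the main inhibitory transmitter of the adult hippocampus. Glutamate decarboxylase makes it in interneurons, a vesicular transporter loads it, and it acts on GABA-A receptors, which are pentameric chloride channels, and on GABA-B receptors, which are coupled to G proteins. The subunits set where a GABA-A receptor sits: receptors with the δ subunit, and many with α5, lie outside synapses and carry a tonic current. Whether the chloride current inhibits depends on the balance of the importer NKCC1 and the exporter KCC2.

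The series compared whole hippocampi of adult male mice by RNA-seq, with 4 Nestin;BrafKE/+ libraries and 5 Braf+/+ libraries. The mutants carried 1 conditional knockin allele of Braf, a kinase of the RAS-ERK pathway, labelled K499E, which Cre under the Nestin promoter activates in stem cells of the nervous system, so that neurons, astrocytes and oligodendrocytes inherit it. The strain label of both groups was C57BL/6N, no treatment beyond the genotype was given, and whether the Braf+/+ mice carried Cre is not given in the sources used here. The study describes the controls as littermates, but which libraries shared a litter is not given. Per the study's methods, the knockin allele was made in embryonic stem cells of a mixed strain background, only in part C57BL/6. The library names fall into 3 series, here called A, B and C, which hold 1, 2 and 1 mutant libraries and 3, 1 and 1 control libraries. The deposited values are normalised counts that the authors had already adjusted for batch, and sums per library of 19551312 to 20091532 reflect that scaling and not the depth, which is unknown.

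The targeted gene was checked first. Braf had normalised counts of 2469, 2190, 2144 and 2252 in the mutants and of 2790, 2680, 2635, 3030 and 2795 in Braf+/+, so that every mutant library lay below every control library. Its log2 fold change was -0.30 (SE 0.065, limma with an adjustment for series, adjusted p = 0.0379), and it passed the threshold in 2 of the 9 fits that left out 1 library, those without mutant replicate 1 or Braf+/+ replicate 3. The table does not tell the mutant from the normal transcript.

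Of the 32 genes, 1 passed an adjusted p of 0.05 (limma, Benjamini-Hochberg adjustment over all genes tested), which is 3.12%, against 466 of 16196 genes, or 2.88%, in the whole table. That gene was Gabrd, and it was lower in the mutants, the direction of 1.36% of all genes. None passed in the higher direction, where 1.52% of all genes did. An unadjusted p under 0.05 was reached by 9 of the 32, or 28.1%, against 18.5% of all genes. They were Gabra5, Gabbr1 and Slc32a1 on the higher side, as were 8.86% of all genes, and Gabra4, Gabrb2, Gabrd, Erbb4, Adarb2 and Cnr1 on the lower, as were 9.61%. For 5 of the 32, or 15.6%, no mutant library lay within the range of the controls, against 15.7% of all genes. The log2 fold changes were above 0 for 16 and below 0 for 16 of the 32, where 50.1% of all genes were above 0. Their median was -0.0010 and their median size without sign was 0.10, against 0.12 over all genes.

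**Figure D1:**
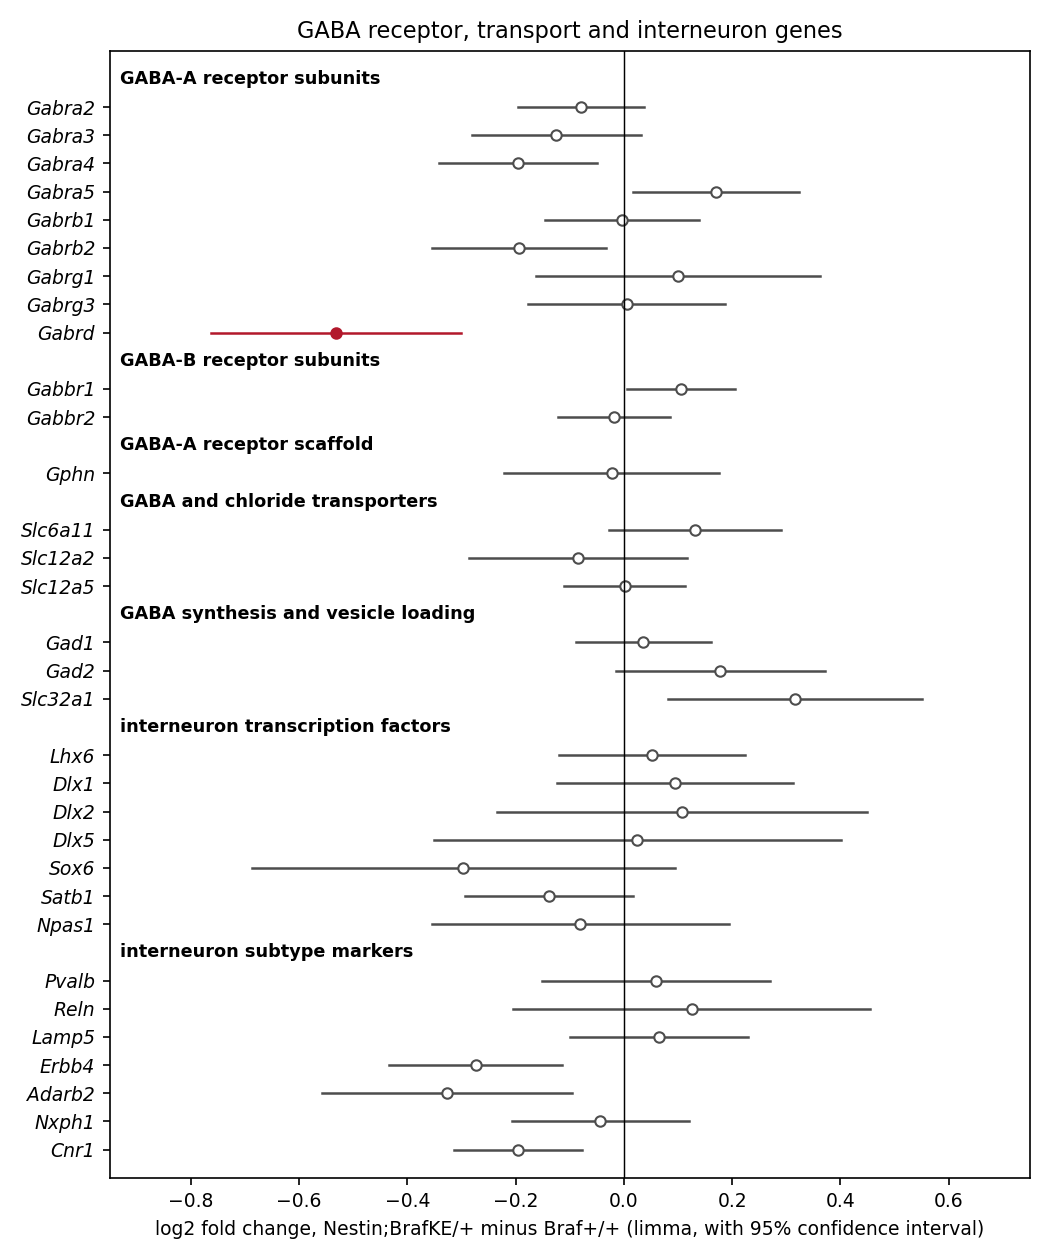
Log2 fold change of each of the 32 genes, Nestin;BrafKE/+ minus Braf+/+, with its 95% confidence interval from limma, grouped by role. The filled red point, Gabrd at -0.53, is the 1 gene past the adjusted threshold, and the open points are the other genes.

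The receptor subunits are taken first. Gabrd encodes the δ subunit, known for extrasynaptic receptors on dentate granule cells and on some interneurons, and lies on chromosome 4 (GRCm39, chr4:155469407-155482872, minus strand). Its normalised counts were 245, 261, 312 and 299 in the mutants and 429, 409, 419, 383 and 374 in Braf+/+, or 279.5 ± 31.6 (SD, n = 4) against 402.9 ± 23.6 (SD, n = 5). All 4 mutant libraries lay below all 5 control libraries, and the highest mutant count of 312 was well under the lowest control count of 374. This gave a log2 fold change of -0.53 (SE 0.10, 95% interval -0.76 to -0.30, limma adjusted p = 0.0253), and Gabrd ranked 231 of the 16196 genes by p. Within series A, B and C it was -0.77, -0.42 and -0.32. An exact two-sided permutation test gave p = 0.00794 over all 126 splits and p = 0.0417 over the 24 splits within series, and neither design can give a lower p. The permutation tests given here take the libraries as exchangeable, which may not hold after the authors' batch adjustment. Gabrd no longer passed without mutant replicate 1 (-0.38, adjusted p = 0.167), mutant replicate 2 (adjusted p = 0.0506), Braf+/+ replicate 1 (adjusted p = 0.0522) or Braf+/+ replicate 4 (adjusted p = 0.0888), in limma fits whose adjusted p for Gabrd ranged from 0.00204 to 0.167 over all alternatives. Without mutant replicate 1, series A has no mutant library, and without Braf+/+ replicate 4, series B has no control library. Such a series then adds nothing to the genotype comparison. In whole tissue, fewer cells of a type and less RNA per cell cannot be told apart.

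Because δ-containing receptors are known from dentate granule cells, a list of 7 markers of these cells is given beside Gabrd. Of the 7, 3 passed the threshold (42.9%), all lower in the mutants, as 1.36% of all genes were: Dsp (log2 fold change -0.78), Stxbp6 (-0.41) and Lct (-0.39). The others did not pass: Prox1, a transcription factor that defines the cell type, had -0.05, C1ql2 0.04, Tdo2 0.05 and Trpc6 -0.12. The summed normalised count of the list was 5899 to 6443 in the mutants and 7010 to 7516 in Braf+/+. These sums include the 3 called genes, whose means in mutants and Braf+/+ were 456.0 and 778.2 (Dsp), 1617 and 2153 (Stxbp6) and 511.0 and 669.8 (Lct). The mean counts of all 7 were far above the minimum for testing. The part of this list in the result on Gabrd was not tested.

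The other α and β subunits that had an unadjusted p under 0.05 were Gabra4, Gabrb2 and Gabra5. Gabra4 encodes α4, the usual partner of δ in the dentate gyrus and forebrain, and its normalised counts were 1807, 1775, 1841 and 1950 in the mutants and 2248, 2202, 1931, 2192 and 1995 in Braf+/+. The groups overlapped by mutant replicate 4 and Braf+/+ replicate 3 alone. Its log2 fold change was -0.20 (SE 0.066, limma adjusted p = 0.149), with -0.23, -0.28 and -0.03 in series A, B and C. Gabrb2, which encodes β2, had 1566, 1373, 1649 and 1551 in the mutants and 1895, 1648, 1682, 1817 and 1730 in Braf+/+. Mutant replicate 3 and Braf+/+ replicate 2 met at 1649 and 1648, and elsewhere the mutants were lower. Its log2 fold change was -0.19 (SE 0.073, limma adjusted p = 0.184).

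Gabra5, which encodes the α5 subunit enriched in the hippocampus, differed in the opposite direction. Its normalised counts were 4258, 4548, 4417 and 4872 in the mutants and 4381, 4217, 3710, 4083 and 3726 in Braf+/+. The 3 highest libraries were mutants other than replicate 1, which lay below Braf+/+ replicate 1. The log2 fold change was 0.17 (SE 0.070, 95% interval 0.02 to 0.32, limma adjusted p = 0.224), and it was positive in each series, at 0.06, 0.13 and 0.39. None of these 3 subunits passed the threshold, and the adjusted p over all alternatives ranged from 0.0298 to 0.457 for Gabra4, from 0.0476 to 0.507 for Gabrb2 and from 0.0694 to 0.523 for Gabra5.

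**Figure D2:**
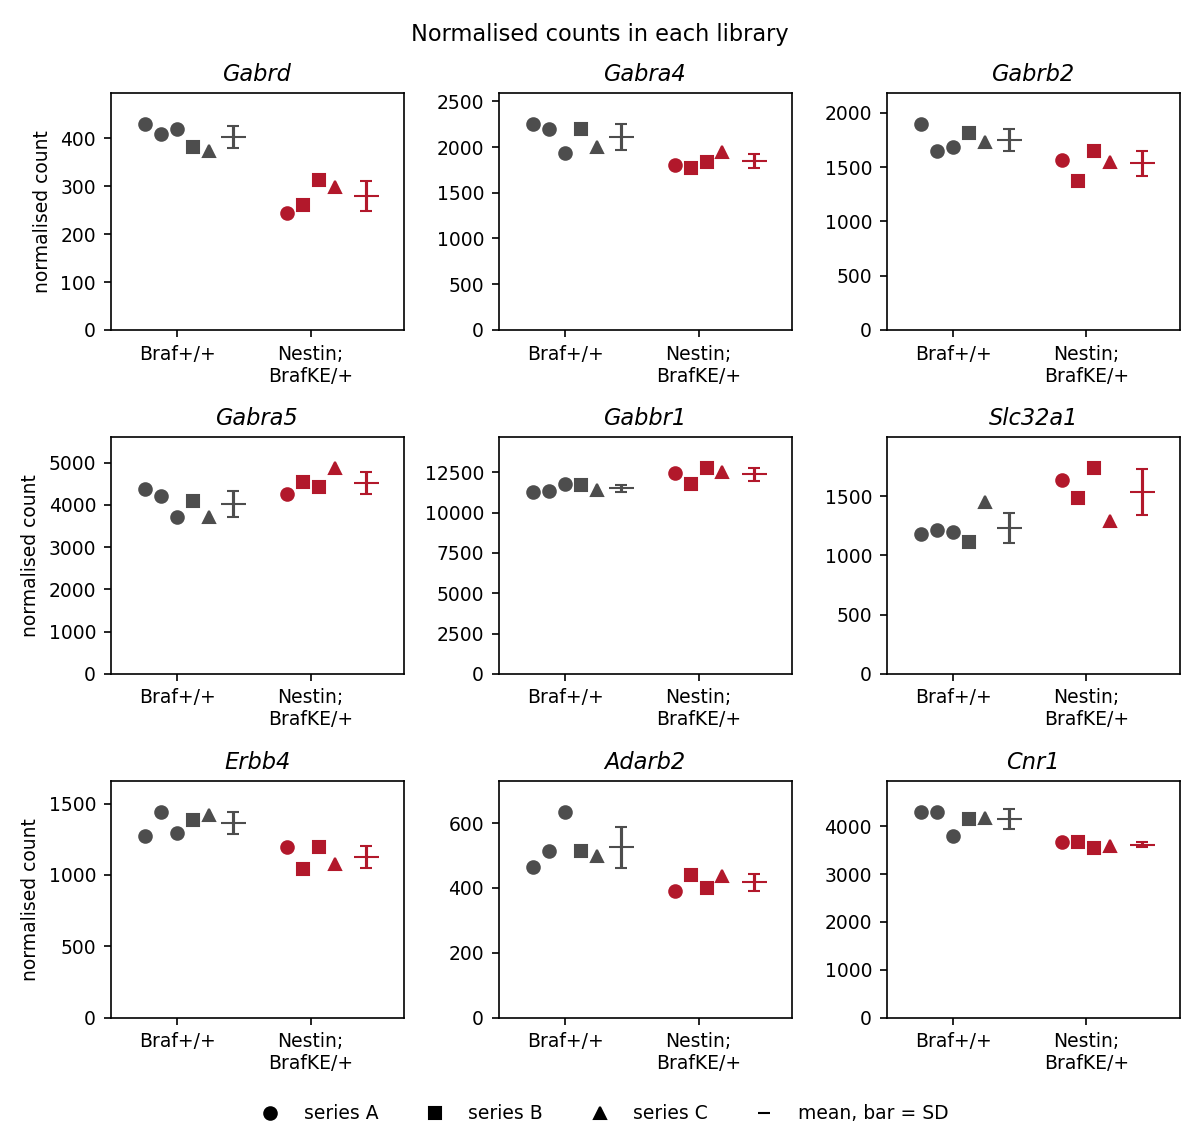
Normalised count in each library for the 9 genes with an unadjusted p under 0.05, with the y axis starting at 0, symbols for the 3 series of library names, and the mean with its SD to the right of each group. Gabrd, Erbb4, Adarb2 and Cnr1 were lower and Gabbr1 was higher in every mutant library than in every Braf+/+ library, and the groups overlapped in the other 4 panels.

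The remaining 5 GABA-A subunits showed small differences. Gabra2 (α2) had 1723, 1618, 1777 and 1675 in the mutants and 1743 to 1827 in Braf+/+, with a log2 fold change of -0.08 (95% interval -0.19 to 0.04). Gabra3 (α3) differed by -0.13 (95% interval -0.28 to 0.03), and its mutant counts of 1256 to 1490 overlapped the control counts of 1411 to 1615. Gabrb1 (β1) had means of 3345 ± 178 (SD, n = 4) and 3354 ± 206 (SD, n = 5) in mutants and Braf+/+, a difference of less than the spread in either group. Gabrg3 (γ3) likewise had 456.0 ± 12.6 and 454.9 ± 30.9 (SD, n = 4 and 5), and the 95% intervals of the log2 fold change were -0.15 to 0.14 for Gabrb1 and -0.18 to 0.19 for Gabrg3. Gabrg1 (γ1) was the least certain of these, at 0.10 with an interval of -0.16 to 0.36.

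Gabra2 has a known difference between C57BL/6J and C57BL/6N mice, and so does Nnt, a mitochondrial transhydrogenase whose gene carries a deletion in C57BL/6J. Nnt is therefore given beside it. The table lists Nnt under a pair of gene IDs, of which the first (ENSMUSG00000025453) had 8.03, 26.8, 16.0 and 16.9 in the mutants and 134, 236, 73.7, 65.3 and 101 in Braf+/+, with no overlap. The log2 fold change was -2.74 (limma adjusted p = 0.0111), lost only without mutant replicate 1 among the fits that left out 1 library. The second ID (ENSMUSG00000116207) had 287 to 397 in the mutants and 225 to 282 in Braf+/+. Gabra2, whose 2 groups overlapped between 1743 and 1777, showed no difference of that kind, and the part of the substrain background in the results on the 32 genes was not tested.

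Most of the 9 GABA-A subunit genes lie in clusters, and neighbours did not all share a direction. On chromosome 5 (GRCm39), Gabrg1 (chr5:70906506-70999960), Gabra2, Gabra4 and Gabrb1 (ending at 72319431) had log2 fold changes of 0.10, -0.08, -0.20 and -0.0036. On chromosome 7, Gabrg3 had 0.0054 and Gabra5 had 0.17. Gabrb2 lies on chromosome 11 (chr11:42310493-42523417, plus strand) and had -0.19. Gabra3 lies on the X chromosome, and Gabrd lies apart from all of these. Gabra4 and Gabrb1 overlap on opposite strands. The library kit keeps the strand, but whether the counting used it is not given in the sources used here.

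Levels between genes can be compared only per length of transcript. Per kb of the canonical transcript, the mean normalised count in Braf+/+ was highest among the 9 subunits for Gabra5, at 1187 ± 88 (SD, n = 5). Gabra4 at 503 ± 34 and Gabra3 at 413 ± 21 followed, and Gabra2 stood at 283 ± 5 per kb. Gabrb1 and Gabrb2, at 244 ± 15 and 230 ± 13 per kb, differed by less than the SD of Gabrb1. Gabrd had 208 ± 12 per kb in Braf+/+ and 144 per kb in the mutants, and Gabrg1 at 97.2 and Gabrg3 at 46.6 per kb were the lowest. On this scale Gabrd thus stood above Gabrg1 and Gabrg3 and below the other 6 in both groups.

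**Figure D3:**
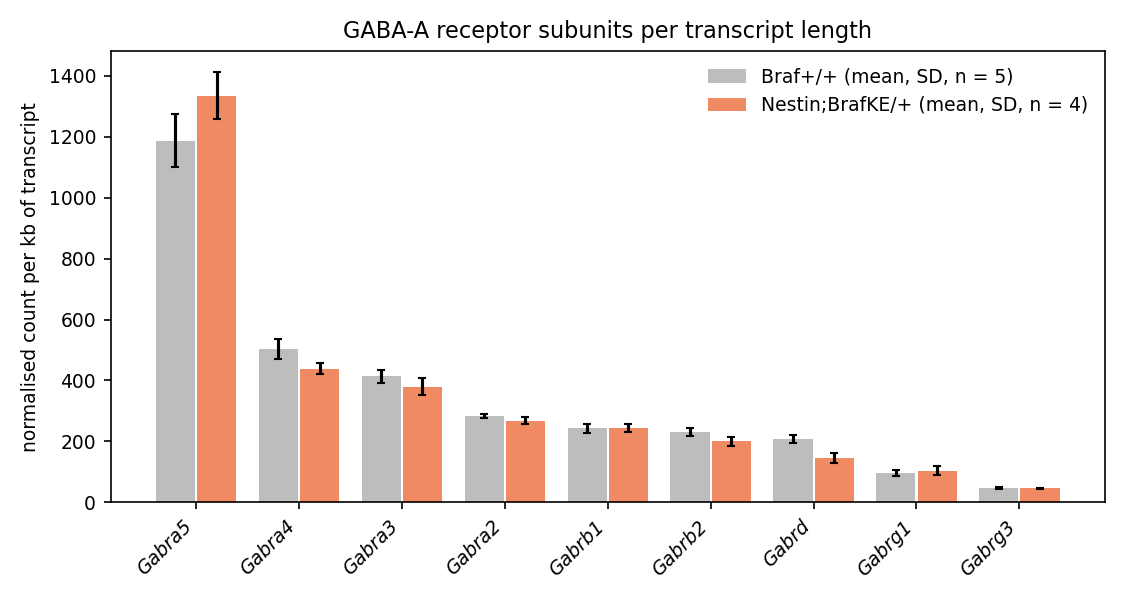
Mean normalised count per kb of canonical transcript for 9 GABA-A receptor subunit genes in Braf+/+ (grey, n = 5) and Nestin;BrafKE/+ (orange, n = 4), with SD. Gabrd stood at 208 per kb in Braf+/+ and at 144 per kb in the mutants, while Gabra5 stood at 1187 and 1334 per kb.

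The GABA-B receptor is a dimer of a subunit that binds GABA, from Gabbr1, and a subunit that signals, from Gabbr2. Gabbr1 had 12471, 11808, 12768 and 12520 in the mutants and 11295, 11370, 11783, 11726 and 11400 in Braf+/+. Every mutant library lay above every control library, by as little as 11808 against 11783. The log2 fold change was 0.11 (SE 0.045, limma adjusted p = 0.247), and higher non-overlapping groups were found for 7.62% of all genes. Gabbr2 had 5894 ± 65 (SD, n = 4) in the mutants and 5972 ± 224 (SD, n = 5) in Braf+/+, with an interval of -0.12 to 0.09 for the log2 fold change. Of the 4 auxiliary subunits that bind the receptor, 1 passed the threshold (25%), against 2.88% of all genes. This was Kctd12, which fell from 4122, 3754, 3853, 3993 and 3918 in Braf+/+ to 3296, 3314, 3142 and 3262 in the mutants. Its log2 fold change was -0.27 (SE 0.049, limma adjusted p = 0.0181), close to -0.25, -0.31 and -0.26 in series A, B and C. It did not pass without mutant replicate 1, mutant replicate 3 or Braf+/+ replicate 4, with an adjusted p in limma of at most 0.103.

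Gphn encodes gephyrin, the scaffold that holds GABA-A and glycine receptors at synapses, and had 1384 ± 165 (SD, n = 4) in the mutants and 1400 ± 85 (SD, n = 5) in Braf+/+. The series gave 0.09, 0.01 and -0.25, so that the direction was not shared. Of 15 other genes of receptor trafficking and anchoring, none passed the threshold, with 1 on either side at an unadjusted p under 0.05. The largest differences were those of Gabarap (0.18) and Hap1 (0.14), which both bind GABA-A receptors or their transport complexes.

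Among the transporters, Slc6a11 encodes GAT-3, which takes GABA up into astrocytes. It had 2874, 3018, 3418 and 3094 in the mutants and 2660, 3000, 3038, 2625 and 2828 in Braf+/+, which overlap, and its log2 fold change was 0.13 (95% interval -0.03 to 0.29, limma adjusted p = 0.372). Of 10 astrocyte markers, 3 passed the threshold, all higher (Gfap 0.68, Aldoc 0.35 and S100b 0.36), as did 1.52% of all genes. Of the 10, 8 had log2 fold changes above 0 and 2 below, Slc1a2 (-0.06) and Gja1 (-0.03). The part of astrocytes in the value of Slc6a11 was not tested. Of 9 other genes of GABA uptake and breakdown, none passed, and 2 had an unadjusted p under 0.05 on the higher side, Abat (0.24) and Glul (0.14). The largest differences were in the low-level Slc6a12 (0.57, SE 0.61) and Slc6a13 (0.40, SE 0.48), which are also expressed by the meninges and vessels. Each was smaller than its SE.

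The chloride exporter KCC2, from Slc12a5, had 8387 ± 135 (SD, n = 4) in the mutants and 8381 ± 403 (SD, n = 5) in Braf+/+, with a 95% interval of -0.11 to 0.11 for the log2 fold change. The importer NKCC1, from Slc12a2, had 2455, 1918, 2163 and 2199 in the mutants and 2059, 2382, 2215, 2634 and 2284 in Braf+/+. The groups overlapped, although mutant replicate 2 lay below and Braf+/+ replicate 4 above every library of the other group, and the log2 fold change was -0.09 (95% interval -0.29 to 0.12). The ratio within a library, log2 of Slc12a5 minus log2 of Slc12a2, was 1.946 ± 0.155 (SD, n = 4) in the mutants and 1.859 ± 0.127 (SD, n = 5) in Braf+/+. The difference of 0.087 was smaller than the spread of either group (exact permutation test, two-sided, p = 0.373 over all splits and p = 0.417 within series). Choroid plexus expresses NKCC1 as well, and its marker Ttr ranged from 928 in mutant replicate 2 to 381593 in Braf+/+ replicate 2, with the highest Slc12a2 in Braf+/+ replicate 4, where Ttr was 106681. The summed count of 8 choroid plexus markers was 1414 to 24573 in the mutants and 4567 to 393286 in Braf+/+, none passed the threshold (1 had an unadjusted p under 0.05), and their part in the values of Slc12a2 was not tested. Of 8 regulators and relatives of the chloride cotransporters none passed (3 had an unadjusted p under 0.05), and the largest differences were in the kinase gene Stk39 (-0.32) and in Slc12a4, which encodes KCC1 (-0.23).

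On the interneuron side, the 3 genes that make and load GABA had log2 fold changes above 0, and none passed the adjusted threshold of limma (1 had an unadjusted p under 0.05). They also mark inhibitory neurons, and all 3 were well above the minimum in every library. Slc32a1 encodes VGAT, the vesicular transporter, and had 1637, 1483, 1737 and 1294 in the mutants and 1182, 1212, 1200, 1114 and 1450 in Braf+/+. The groups were apart except in series C, where the mutant library had 1294 and the control library 1450. The log2 fold change was 0.32 (SE 0.11, limma adjusted p = 0.145), with 0.45, 0.53 and -0.16 in series A, B and C. Without mutant replicate 4 or without Braf+/+ replicate 5, the libraries of series C, it passed the threshold. Either omission takes series C out of the genotype comparison. Gad2, which encodes the decarboxylase of nerve terminals, had 3996, 3381, 4231 and 3439 in the mutants against 3156, 3541, 3031, 3245 and 3605 in Braf+/+, and differed by 0.18 (limma adjusted p = 0.309). Its series showed the same pattern, with 0.30, 0.22 and -0.07. Gad1, which encodes the form that makes most GABA, had 6161 ± 377 (SD, n = 4) and 6001 ± 201 (SD, n = 5), and its interval was -0.09 to 0.16.

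The 7 transcription factors of interneuron development included none with an unadjusted p under 0.05. Lhx6, which specifies interneurons from the medial ganglionic eminence, had 376 to 400 in the mutants and 364 to 402 in Braf+/+, so that the groups overlapped fully. Its log2 fold change was 0.05 (95% interval -0.12 to 0.22). Dlx1, Dlx2 and Dlx5, homeobox genes of the ganglionic eminences, had 0.10, 0.11 and 0.02, and the last pair was expressed at a mean of only 61.2 to 73.4 in the groups. Satb1, which acts downstream of Lhx6, had -0.14 (limma adjusted p = 0.330), and Npas1 had -0.08. Sox6, which is also expressed by oligodendrocyte precursors, had -0.30 (SE 0.18) and varied from 304 to 540 within Braf+/+ alone, so that its interval of -0.69 to 0.09 was the widest of the 7.

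Of the 7 markers of interneuron subtypes, 3 had groups that did not overlap, all lower in the mutants, as 8.13% of all genes were, and none passed the adjusted threshold. Erbb4, the neuregulin receptor tyrosine kinase of many parvalbumin and other interneurons, had 1194, 1043, 1194 and 1079 in the mutants and 1270, 1441, 1294, 1384 and 1421 in Braf+/+. The log2 fold change was -0.27 (SE 0.072, limma adjusted p = 0.0727), with -0.16, -0.31 and -0.40 in series A, B and C. Cnr1 encodes the CB1 cannabinoid receptor, abundant on terminals of cholecystokinin basket cells and present in excitatory neurons too, and had 3659, 3665, 3549 and 3581 in the mutants and 4297, 4293, 3785, 4156 and 4179 in Braf+/+. The mutant libraries lay close together, and Braf+/+ replicate 3 was the nearest control library to them. Its log2 fold change was -0.20 (SE 0.054, limma adjusted p = 0.0815), and close to -0.17, -0.20 and -0.22 in the series. Adarb2, an RNA-binding protein gene that marks interneurons of the caudal ganglionic eminence, had 390, 441, 400 and 436 in the mutants and 464, 515, 634, 512 and 498 in Braf+/+, with -0.33 (SE 0.10, limma adjusted p = 0.130).

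The other 4 subtype markers had overlapping groups. Pvalb, the calcium-binding protein of fast-spiking basket cells, had 425, 434, 463 and 406 in the mutants and 402, 380, 470, 384 and 440 in Braf+/+, and a log2 fold change of 0.06 (95% interval -0.15 to 0.27). Reln and Lamp5, both expressed by neurogliaform cells, had 0.13 and 0.06, where Reln varied from 862 to 1385 within Braf+/+. Nxph1, a ligand of neurexins secreted by interneurons, had 682.5 ± 50.6 (SD, n = 4) and 702.0 ± 22.7 (SD, n = 5), a difference smaller than the spread. Erbb4, Adarb2, Nxph1, Reln and several others of the 32 genes overlap predicted genes on the same strand, so their values are uncertain by any reads that the counting shared out between them.

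Of 31 other interneuron genes, 30 were tested and 4 passed the threshold, all higher in the mutants, which is 13.3% against 2.88% of all genes. In limma, 9 on the higher and 2 on the lower side had an unadjusted p under 0.05 (36.7%, against 18.5% of all genes), and 8 higher and 2 lower had groups that did not overlap (33.3%, against 15.7%). Pnoc, Cck and Sst, the genes of prepronociceptin, cholecystokinin and somatostatin, had 0.64, 0.27 and 0.24 with non-overlapping groups and did not pass (limma adjusted p = 0.0535, 0.0527 and 0.159). Rbp4 (0.39) also had higher groups without overlap, and Nos1 (-0.24) and Kcnc1 (-0.13) had lower ones. They did not pass either (limma adjusted p = 0.191, 0.126 and 0.199). Npy, neuropeptide Y, had 1090, 1194, 1020 and 979 in the mutants and 564, 482, 535, 496 and 579 in Braf+/+, with a log2 fold change of 1.01 (SE 0.090, limma adjusted p = 0.00105), and passed in all 9 fits that left out 1 library. Npy (chr6:49799026-49806489) lies on the chromosome of the targeted Braf (chr6:39579870-39702629). The part of stem cell sequence linked to the knockin allele in this result was not tested. Cort, cortistatin, rose by 0.76 (adjusted p = 0.0210, limma), Crhbp, which binds corticotropin-releasing hormone, rose by 0.52 (limma adjusted p = 0.0210) and Calb1, the calcium-binding protein calbindin, rose by 0.43 (limma adjusted p = 0.0178). These 3 did not pass without mutant replicate 1, mutant replicate 3 or Braf+/+ replicate 4, with adjusted p values of at most 0.131, 0.134 and 0.0662. Several of these genes are also expressed by excitatory cells of the hippocampus, Calb1 in granule cells and part of CA1. Beside them, Lhx6, Pvalb, Gad1 and the other markers of interneuron identity among the 32 genes did not pass the threshold in either direction.

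The comparison of both sides gave a small difference. The receptor and transport genes had a median log2 fold change of -0.02 (6 above 0 and 9 below, 1 past the threshold, with 5 at an unadjusted p under 0.05, or 33.3%), and the interneuron genes had 0.04 (10 above 0 and 7 below, 0 past the threshold, with 4 at an unadjusted p under 0.05, or 23.5%, by limma). The medians thus differed by -0.05. Of all genes tested, 18.5% had an unadjusted p under 0.05 in limma and 2.88% passed the threshold. In each library, the mean log2 level of the receptor and transport genes minus that of the interneuron genes, each gene taken relative to its own mean, was -0.05, -0.03, -0.04 and 0.05 in the mutants and 0.03, 0.03, 0.02, 0.05 and -0.05 in Braf+/+. The series C libraries went against the others in both groups, so that the groups overlapped. The spread of this value between libraries, 0.044, was of about the same size as the difference of the medians, which was -0.01 without Braf+/+ replicate 4.

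**Figure D4:**
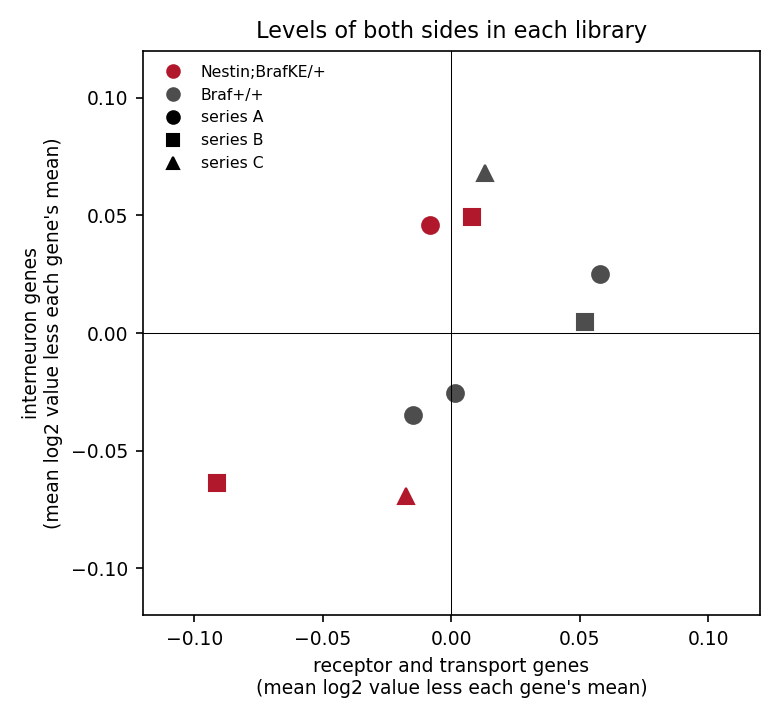
Mean log2 level of the 15 receptor and transport genes (x axis) and of the 17 interneuron genes (y axis) in each library, each gene relative to its own mean over the 9 libraries. Mutant (red) and Braf+/+ (grey) libraries intermingled on both axes, and every value lay between -0.09 and 0.07.

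The other lists of cell type and tissue markers serve as a check of what the samples held. Of all genes tested, 2.88% passed the threshold, 1.52% higher and 1.36% lower, and 18.5% had an unadjusted p under 0.05 in limma. Oligodendrocyte markers passed the threshold in 4 of 9 (Mog, Mag, Mobp and Cldn11, all higher) and CA1 markers in 2 of 6 (Wfs1 and Fibcd1, higher), whereas none passed among 7 CA3 (largest Iyd -1.23 and Coch -0.58), 7 microglia (C1qa and Aif1, both 0.23), 8 thalamus (Lef1 -0.29 and Prkcd 0.26), 7 pan-neuronal (Syt1 -0.18 and Rbfox3 -0.16), 5 blood (Hba-a1 0.57 and Hbb-bs 0.47) and the choroid plexus markers (Kcnj13 -1.87 and Folr1 -1.83). An unadjusted p under 0.05 in limma was reached by 3, 2, 0, 3 and 4 of these CA3, microglia, thalamus, pan-neuronal and blood genes. Of 8 striatum markers Ppp1r1b passed (-0.56), of 7 excitatory neuron markers Neurod2 (-0.53) and Itpka (0.31) passed, and of 10 immediate early genes Fos (-0.67) and Arc (0.77) passed. Of 7 other GABA receptor subunit genes, 2 were tested, both at low levels, and none passed in limma (1 had an unadjusted p under 0.05): Gabrr2 had -1.34 and Gabrq had 0.98. Gabrr2 had a mean of 4.99 in the mutants and 14.19 in Braf+/+, so it reached the minimum of 10 only through Braf+/+. Its unadjusted p is therefore no support for a difference.

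Promoter sequences are given for Gabrd, for the lower-lying Erbb4 and Cnr1 and for Slc32a1, the gene with the highest log2 fold change of the 32, so that the regions can be compared with their values. Each is the 250 bases upstream of the start of the canonical transcript, 5′ to 3′ on the strand of the gene, in GRCm39: Gabrd chr4:155482585-155482834 (minus strand), Erbb4 chr1:69147620-69147869 (minus), Cnr1 chr4:33923765-33924014 (plus) and Slc32a1 chr2:158452355-158452604 (plus). The windows of Gabrd and Cnr1 lie inside the annotated genes, which begin further upstream, at 155482872 and 33922982, so other transcripts may start elsewhere.
Gabrd: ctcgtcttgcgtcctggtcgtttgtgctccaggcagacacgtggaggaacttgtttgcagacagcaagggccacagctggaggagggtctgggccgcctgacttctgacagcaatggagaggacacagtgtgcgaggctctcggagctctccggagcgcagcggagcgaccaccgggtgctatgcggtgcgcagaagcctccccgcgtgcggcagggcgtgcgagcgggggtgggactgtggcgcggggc
Erbb4: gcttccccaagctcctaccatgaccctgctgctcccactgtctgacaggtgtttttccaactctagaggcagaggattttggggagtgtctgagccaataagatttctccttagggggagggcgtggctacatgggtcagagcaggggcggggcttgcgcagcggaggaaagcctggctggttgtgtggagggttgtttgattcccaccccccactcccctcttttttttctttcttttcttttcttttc
Cnr1: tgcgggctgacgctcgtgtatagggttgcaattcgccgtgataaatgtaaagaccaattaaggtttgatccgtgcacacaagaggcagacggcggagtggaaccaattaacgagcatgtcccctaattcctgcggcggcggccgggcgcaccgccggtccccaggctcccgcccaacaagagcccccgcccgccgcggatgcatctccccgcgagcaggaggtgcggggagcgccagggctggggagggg
Slc32a1: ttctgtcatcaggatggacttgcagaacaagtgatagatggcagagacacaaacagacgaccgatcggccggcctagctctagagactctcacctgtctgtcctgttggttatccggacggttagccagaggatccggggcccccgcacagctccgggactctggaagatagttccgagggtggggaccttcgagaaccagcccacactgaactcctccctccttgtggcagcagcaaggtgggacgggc
Their G and C content was 67.2% for Gabrd, 54% for Erbb4, 64.8% for Cnr1 and 58.8% for Slc32a1, against a median of 56.2% over the 32 genes and 56.0% over 16133 genes. On both strands of such windows, 4 short motifs were searched: the cAMP response element TGACGTCA, the AP-1 site TGANTCA, the ETS site CCGGAAG, bound by a family of factors that ERK can phosphorylate, and the E-box CAGATG of the NeuroD type. They were found in 1.92%, 4.54%, 8.75% and 11.7% of the 16133 windows. Among the 32 genes, the AP-1 site was in the window of Lhx6, the ETS site in those of Pvalb and Reln, the E-box in that of Sox6 and the cAMP response element in none. None of the 4 printed windows held any of these letters, which describes these windows only.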

How the data were processed

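Hippocampal RNA of 9 mice was sequenced from stranded mRNA libraries. Per the labels and the study's methods, the authors used TrimGalore for trimming, STAR for alignment (GRCm39, Gencode vM28), Salmon for quantification and DESeq2 for scaling, after a batch adjustment. The deposited values, treated as a signal, are these normalised counts. They are whole multiples of a step of 0.993 to 1.004 per library (100% within 0.01) with no 0, but whole numbers that follow a batch adjustment are not reads, so the depth is unknown and no count model was used.

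Genes with a mean of at least 10 were tested by limma 3.58.1 (R 4.3.3; trend, log2 of value + 1, so that fold changes of low genes are understated) for genotype with the 3 series of library names as covariate, two-sided, Benjamini-Hochberg adjusted over 16196 genes. The series are a reading of the names, not a stated batch. The median SE of a log2 fold change was 0.28 for genes with means of 10 to 100, 0.10 for 100 to 1000 and 0.06 above. In data simulated for this comparison with 200 of 16196 genes changed, 40.5% were recovered at a log2 fold change of 0.5 and 81.5% at 1. The simulated libraries had independent noise, no series effect and no batch adjustment, so these rates need not hold for the deposited values. Both libraries of series C deviated from their group means in opposite directions (r = -0.997 across genes, which are not independent replicates), as libraries of a series do once its mean is removed, so they are not independent within a series. The study describes its controls as littermates, but the litter of each library is not given, so no fit could take litter into account. The p-values measure the spread between these samples. No libraries held identical values. Coordinates, lengths and promoters are from Gencode vM39 (16134 of 16196 IDs matched; GRCm39).

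The 32 genes and the other gene lists were chosen with earlier results of these data known. Named are Braf, the 32 genes, Nnt, and from the other lists the genes past the threshold or, where none passed, the 2 with the largest log2 fold change; other genes of these lists named for a value were chosen after seeing it. Alternatives were another pseudocount, filter, scaling, covariate, weighting and each library left out. Some GABA receptor subunit genes are not reported here.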

Additional observations from a re-analysis of the deposited data

Results flagged for a closer look

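In 3 of the 64 groups of values checked (32 genes in each genotype), 1 library lay far from the rest by Dixon's criterion, which chance meets in about 1 of 20 groups. Gabrb1, the β1 subunit gene, had a normalised count of 3609 in Nestin;BrafKE/+ replicate 1, where the other mutants had 3239 to 3289. Nxph1 had 741.1 in Braf+/+ replicate 2 and 683.6 to 699 in the other Braf+/+ libraries. Cnr1 had 3785 in Braf+/+ replicate 3 and 4156 to 4297 in the others, and passed the adjusted threshold of limma when that library was left out.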

How the results depend on the processing

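Over the alternatives, 588 of 640 values of the 32 genes kept their direction and their side of the threshold, 6 lost and 13 gained significance, and 33 reversed, all in 12 genes with a log2 fold change of at most 0.13 in size. The number of all genes past the threshold was 466, and 2260 with no series term, 165 with 4 name prefixes as the covariate, 258 with array quality weights and 42 to 371 with 1 library left out (lowest without mutant replicate 1; 97 without Braf+/+ replicate 4, 169 without mutant replicate 3 and 278 without Braf+/+ replicate 1). Of the 32 genes, 8 passed with no series term (Gabrd, Gabra4, Gabrb2, Gabbr1, Slc32a1, Erbb4, Adarb2 and Cnr1), a fit that spends none of the degrees of freedom used by the batch adjustment, 0 passed with 4 prefixes or with quality weights, and 0 to 2 with 1 library left out. Gabrd had -0.50 with 4 prefixes (limma adjusted p = 0.0757), -0.52 with quality weights (limma adjusted p = 0.0552) and -0.61 to -0.38 with 1 library left out, passing in 5 of 9 such fits. Series A holds 1 mutant library and series B 1 control library. Leaving out mutant replicate 1 or Braf+/+ replicate 4 therefore takes a whole series out of the genotype comparison. Leaving out either library of series C gave Gabrd the same -0.61, since series C then drops out, so these fits make the same comparison. Other reasons for the failures were not tested. The receptor and interneuron medians differed by -0.0891 to -0.0104 with 1 library left out.

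Replicate numbers gave no sign of pairing: same-numbered libraries correlated in their deviations across genes at -0.39, -0.08, 0.07 and 0.42, and 1 of 4 correlated best with its own number. These deviations follow a batch adjustment and are tied within a series, so they cannot show whether the samples were paired. With the replicate number as a block and no series term, 1405 genes passed, and 4 of the 32 (Gabrd, Gabra4, Slc32a1 and Cnr1).

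Reversed values were small. Slc12a5 had -0.0002 under quantile normalisation, -0.0032 with 4 prefixes and -0.0029 with quality weights, and Gabrb1 had 0.0088 with 4 prefixes, 0.0027 with the block and 0.0045 with quality weights. With 4 prefixes Gabrg3 had -0.0235 and Gabbr2 0.0053, and with the block Gphn had 0.0055. With 1 library left out, the ranges were -0.0257 to 0.022 for Slc12a5, -0.0997 to 0.0676 for Gabrb1, -0.0262 to 0.0215 for Gabrg3, -0.0978 to 0.0557 for Gphn, -0.0091 to 0.20 for Gabrg1, -0.0014 to 0.0681 for Gad1, -0.15 to 0.13 for Dlx5, -0.054 to 0.3106 for Reln, -0.0104 to 0.1394 for Lamp5, -0.2351 to 0.0672 for Slc12a2 and -0.0288 to 0.1218 for Pvalb.

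Among the called genes named from the other lists, Npy and Wfs1 passed in all 9 fits that left out 1 library, and Neurod2 in those other than the fit without mutant replicate 1. The rest of them failed without mutant replicate 1 and without Braf+/+ replicate 4. For Dsp, Stxbp6, Gfap, Aldoc, Itpka and Arc these were the only such failures, so that they passed in 7 of 9 fits. Kctd12, Cort, Crhbp, Calb1, Lct, Cldn11 and Fibcd1 also failed without mutant replicate 3 and passed in 6 of 9. Mobp passed in 5 of 9 fits, S100b and Mog in 4, Ppp1r1b in 2, and Fos and Mag in 1. Unknown depth and groups of 4 and 5 limit what can be seen, and the smallest permutation p within series is 0.0417.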
